A study of Mus musculus with 9 samples.

Results

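The genes described here are 8 long noncoding RNA genes that host small nucleolar RNAs (snoRNAs) in their introns, namely Gas5, Snhg1, Snhg3, Snhg4, Snhg5, Snhg6, Snhg8 and Snhg12, and 2 nuclear long noncoding RNAs (lncRNAs), Malat1 and Neat1. They were taken by symbol from a table of raw read counts with 52264 rows, where the 10 genes occupied 11 rows because Snhg4 has a second row, written Snhg4.1. All 10 genes passed the low-count filter and were among the 15366 rows tested. The libraries came from mouse embryonic stem cells (ESCs) labelled beta-catenin-/-, grown on feeder cells and moved to N2B27, a serum-free medium, on the evening before RNA was taken. The groups were an untreated control, BRD0705 and CHIR, with 3 libraries each, and the inhibitors were present for 30 min. BRD0705 is an inhibitor selective for GSK3α, and CHIR (CHIR-99021) inhibits both GSK3α and GSK3β, the kinases that mark β-catenin for degradation. All 3 groups carry the same genotype, and the labels describe expansion of the cells in 3 µM CHIR-99021, 1 µM PD03 and 40 ng/ml LIF. The concentration used for the 30 min treatment, the number of clones behind the line and whether the libraries came from separate cultures are not given in the sources used here, so p-values measure the spread between these libraries, which may be technical.

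A snoRNA host gene is spliced, and the snoRNAs are cut out of its introns to guide the chemical modification of ribosomal and other RNAs. The exons that remain form an RNA with short reading frames, which in many hosts is engaged by ribosomes and then removed by nonsense-mediated decay (NMD), so that the steady level is set by synthesis and by fast decay. Many hosts belong to the class with a terminal oligopyrimidine (TOP) start, a run of C and T at the first transcribed bases that ties their translation to growth signalling. Malat1 stays in nuclear speckles, bodies rich in splicing factors, and Neat1 is the scaffold of paraspeckles, nuclear bodies built around the proteins Nono and Sfpq.

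The start regions of the genes are shown because most of these genes moved together between the inhibitors and because the TOP start is a feature of sequence. RefSeq windows on GRCm38.p6, the assembly also called mm10, were found for 7 of the 10 genes, with 8 starts in all, since Gas5 has 2 annotated starts. Each line gives 50 bases before the annotated start and 30 bases from it, 5′ to 3′ on the gene's strand. Capitals mark TATA beginning 40 to 20 bases before the start, and the longest run of C and T, at least 6 bases long, that begins within 10 bases of the start.
Gas5 start 1 (chr1:161034551-161034630, plus strand): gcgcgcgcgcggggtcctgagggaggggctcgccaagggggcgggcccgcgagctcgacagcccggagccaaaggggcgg
Gas5 start 2 (chr1:161035116-161035195, plus strand): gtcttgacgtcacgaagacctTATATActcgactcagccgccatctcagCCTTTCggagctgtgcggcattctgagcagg
Snhg1 (chr19:8723437-8723516, plus strand): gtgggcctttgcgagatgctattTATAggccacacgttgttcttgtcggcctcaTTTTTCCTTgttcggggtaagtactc
Snhg3 (chr4:132353657-132353736, minus strand): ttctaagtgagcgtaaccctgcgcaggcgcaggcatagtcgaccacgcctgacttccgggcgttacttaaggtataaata
Snhg5 (chr9:88522868-88522947, minus strand): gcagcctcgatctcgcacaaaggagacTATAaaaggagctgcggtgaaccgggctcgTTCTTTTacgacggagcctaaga
Snhg8 (chr3:123508307-123508386, minus strand): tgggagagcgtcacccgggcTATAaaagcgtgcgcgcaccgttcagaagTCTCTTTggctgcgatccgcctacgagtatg
Snhg12 (chr4:132308628-132308707, plus strand): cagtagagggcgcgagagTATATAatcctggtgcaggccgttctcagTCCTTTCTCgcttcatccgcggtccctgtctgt
Malat1 (chr19:5802643-5802722, minus strand): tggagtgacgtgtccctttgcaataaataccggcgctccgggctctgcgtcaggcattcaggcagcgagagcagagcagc
Both features stood in 5 of the 8 windows, those of the second Gas5 start, Snhg1, Snhg5, Snhg8 and Snhg12. The Gas5 window that lacks them is the upstream of its 2 starts, and Snhg3 and Malat1 also lack both at the places searched. TATA, which reads the same on both strands, was found at that place in 5.81% of 32851 windows in the table, the C/T run in 22.2%, its counterpart on the other strand in 25.1%, and TATA with the C/T run in 1.43%. The run begins with C in 1 of the 5 windows, and the annotated start need not be the base used in these cells. The Snhg3 line holds TATA near its end, after the annotated start and outside the stretch searched. The 2 search windows were set after these sequences had been seen, so the shares are a description.

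The counts are read here as levels of the host genes and not of the snoRNAs. In the annotation, exons of every host but Snhg5 overlap snoRNAs on the same strand. Reads from snoRNAs or retained introns may therefore be counted to a host, which was not tested. RefSeq places 27 snoRNAs inside the 8 hosts, 11 of them have a row in the table, and those 11 rows hold 7 counts in all over the 9 libraries. Library totals ran from 17359422 to 20773337 counts. Counts of 2 libraries of a group differed beyond sampling noise in all 9 such pairs (chi-square per degree of freedom 3.37 to 7.89). Ctnnb1, the gene of β-catenin, had 303 to 371 CPM in the 9 libraries, where CPM are counts scaled to the library total. The deleted part of Ctnnb1 is not given in the sources used here, so these counts do not check the genotype. The stem cell markers, led by Utf1, Esrrb and Pou5f1, summed to 4820 to 5218 CPM. The 10 feeder fibroblast markers, led by Col1a1, were all detected in every library and summed to 2149 to 2598 CPM in the control libraries, while BRD0705 libraries held 2730 to 2823 CPM and CHIR libraries 2458 to 2924 CPM. The libraries are bulk RNA, so fewer cells of a type and less RNA per cell cannot be told apart. Mitochondrial transcripts took 1.5 to 1.59% of counts in the control, 1.35 to 1.87% with BRD0705 and 1.79 to 1.91% with CHIR, and the part of this share in the results was not tested.

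Summed over the 8 hosts, the level was lowest with BRD0705 and highest with CHIR. It was 211, 241 and 225 CPM in the control libraries 1 to 3, 196, 198 and 201 CPM with BRD0705, and 293, 260 and 252 CPM with CHIR. The 3 ranges did not overlap. The same order held for the group means of Gas5, Snhg1, Snhg4, Snhg5, Snhg12, Malat1 and Neat1. In Snhg12 the BRD0705 mean of 16.1 CPM lay close to the control mean of 16.5 CPM, and in Malat1 the CHIR mean of 85.7 CPM lay close to the control mean of 85.2 CPM. Snhg3 had its lowest mean in the control, and Snhg6 and Snhg8 had their highest there.

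**Figure D1:**
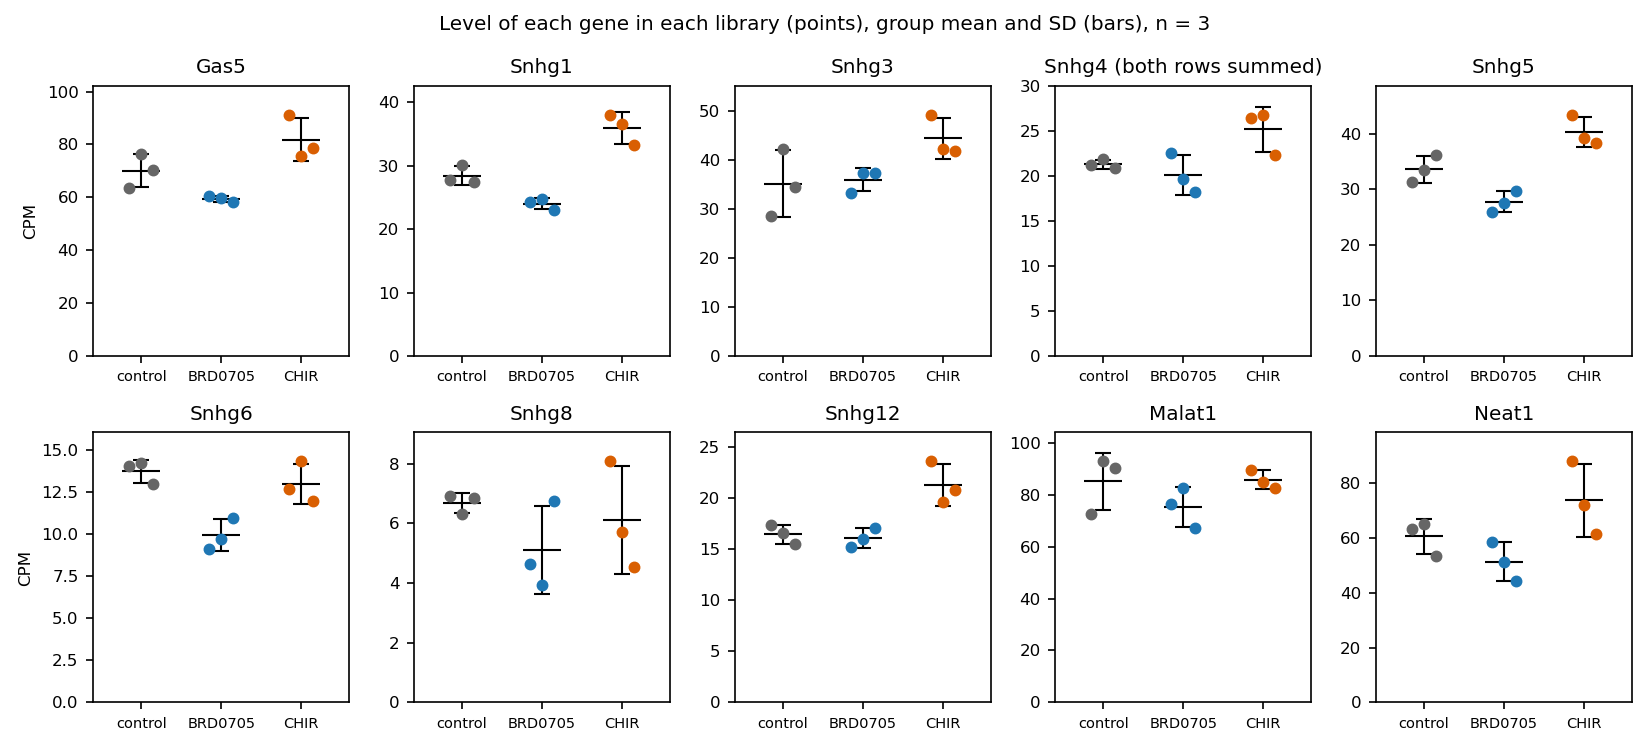
Level of each of the 10 genes in CPM (vertical axis from 0) in each library (points) of the control, BRD0705 and CHIR groups, with the mean and SD of 3 libraries (bars). For Snhg4 the 2 rows are summed. In Snhg1 and Snhg5 the 3 groups are separate, with BRD0705 lowest and CHIR highest.

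The direct comparison of the 2 inhibitors held most of the differences. With BRD0705, Gas5, Snhg1, Snhg5, Snhg6, Snhg12 and Neat1 were lower than with CHIR past an adjusted p of 0.05 (edgeR quasi-likelihood test, Benjamini-Hochberg over all 15366 tested rows). That is 6 of the 10 genes, and 2.97% of all tested rows were lower past the same threshold (7.77% in either direction and 4.80% higher). All 10 log2 differences were below 0, as were 49.2% of those of all tested rows, and their median was -0.43 against 0.00 for all tested rows. CPM ranges of BRD0705 and CHIR were separate in 9 of the 10 genes, Snhg8 being the exception. All tested rows had separate ranges in 26.7% of cases, and BRD0705 was the lower in 12.9%.

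Snhg1, the host of Snord22 among others, was measured at 27.7, 30.1 and 27.5 CPM in the control, 24.3, 24.7 and 23.1 CPM with BRD0705, and 38, 36.6 and 33.2 CPM with CHIR. Every BRD0705 library lay below and every CHIR library above the 3 controls. Its log2 difference between BRD0705 and CHIR was -0.58 ± 0.071 (SE, n = 3 and 3), a fall of 33.2% from the CHIR level, with an adjusted p of 7.33e-05 by edgeR. Snhg5, which hosts box C/D snoRNAs and has no exon shared with another row in the annotation, gave 31.3, 33.5 and 36.1 CPM in the control, 26.0, 27.5 and 29.8 CPM with BRD0705, and 43.4, 39.2 and 38.3 CPM with CHIR. The 3 groups were again separate. The log2 difference was -0.54 ± 0.075 (SE), with an edgeR adjusted p of 0.000265.

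Gas5, named for its rise in growth-arrested cells and host of a series of box C/D snoRNAs, was the most counted host, with 1047 to 1829 counts a library. It stood at 63.6, 76.2 and 70.3 CPM in the control, 60.6, 59.6 and 58.2 CPM with BRD0705, and 91.2, 75.5 and 78.8 CPM with CHIR. BRD0705 lay below all controls, while CHIR replicate 2 lay just under the highest control. The log2 difference between the inhibitors was -0.46 ± 0.075 (SE), with an edgeR adjusted p of 0.000983. Exons of Gas5 lie opposite exons of Zbtb37, and the use of strand in counting is not given in the sources used here, so reads of overlapping genes may not be separated. Zbtb37 had a log2 difference of -0.29 in the same comparison, with an edgeR adjusted p of 0.138.

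Snhg12, host of Snora16a, Snora44, Snora61 and Snord99, gave 17.4, 16.6 and 15.5 CPM in the control, 15.2, 16 and 17.1 CPM with BRD0705, and 23.6, 19.6 and 20.8 CPM with CHIR. Only the CHIR group stood apart, above the other two. The log2 difference between the inhibitors was -0.41 ± 0.087 (SE), with an edgeR adjusted p of 0.00763. Snhg6, host of Snord87, had the other pattern, with 14, 14.2 and 13 CPM in the control, 9.09, 9.73 and 11 CPM with BRD0705, and 12.7, 14.3 and 12 CPM with CHIR. Here only BRD0705 stood apart, below the other two. The difference was -0.38 ± 0.102 (SE), with an edgeR adjusted p of 0.0281. Of the 9 leave-one-out fits, 4 lost that call, those without BRD0705 replicate 1 or 2 or CHIR replicate 1 or 2, and after the correction for GC content and length (adjusted p = 0.0502).

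Neat1 was measured at 63.2, 64.9 and 53.3 CPM in the control, 58.4, 51.3 and 44.1 CPM with BRD0705, and 87.8, 72.0 and 61.2 CPM with CHIR. The inhibitor groups were separate, and both overlapped the control. The log2 difference was -0.53 ± 0.113 (SE), with an edgeR adjusted p of 0.00757. Malat1 showed less, with 72.6, 92.8 and 90.2 CPM in the control, 76.3, 82.6 and 67.1 CPM with BRD0705, and 89.7, 84.8 and 82.7 CPM with CHIR. CHIR replicate 3 and BRD0705 replicate 2 were nearly level at the border of the groups. Its log2 difference of -0.19 (95% confidence interval -0.37 to -0.01) did not pass, with an edgeR adjusted p of 0.195.

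The other 3 hosts did not pass as single rows. Snhg3, host of Snora73a and Snora73b, gave 28.6, 42.3 and 34.5 CPM in the control, 33.2, 37.3 and 37.3 CPM with BRD0705, and 49.1, 42.3 and 41.7 CPM with CHIR, a log2 difference between the inhibitors of -0.31 (edgeR adjusted p = 0.082). The controls spanned most of that range. Exons of Snhg3 overlap Rcc1 on the same strand, and Rcc1, a chromatin-bound exchange factor for Ran, had a log2 difference of -0.14 (edgeR adjusted p = 0.0984). Snhg8, host of Snora24, was the gene with the widest relative spread within the inhibitor groups, at 3.93 to 6.74 CPM with BRD0705 and 4.54 to 8.07 CPM with CHIR, and its difference of -0.25 had a 95% confidence interval of -0.67 to 0.17.

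Snhg4, host of Snora74a, depended on how its rows were read. The first row was low, at 1.25 to 2.09 CPM with BRD0705 and 2.19 to 3.19 CPM with CHIR, and had a log2 difference of -0.68 ± 0.222 (SE, edgeR adjusted p = 0.0697). The second row, Snhg4.1, was several times higher and gave -0.28 ± 0.090 (edgeR adjusted p = 0.0604). Summed, the 2 rows stood at 21.2, 21.9 and 20.9 CPM in the control, 22.6, 19.6 and 18.2 CPM with BRD0705, and 26.4, 26.8 and 22.4 CPM with CHIR. The sum passed, with a log2 difference of -0.32 ± 0.088 (SE) and an edgeR adjusted p of 0.0314, although the lowest CHIR library lay under the highest BRD0705 library. The annotation has 2 genes of this symbol, and exons of Snhg4 overlap Matr3, a nuclear matrix protein, on the same strand. Matr3 itself was lower with BRD0705 than with CHIR by the same test, at a log2 difference of -0.22 (edgeR adjusted p = 0.0369).

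With CHIR against the control, Snhg1, Snhg5 and Snhg12 rose. The log2 changes were 0.34 ± 0.069 for Snhg1, 0.26 ± 0.073 for Snhg5 and 0.37 ± 0.086 for Snhg12 (SE, n = 3 and 3), or 1.26-, 1.2- and 1.3-fold, at adjusted p values from edgeR of 0.00642, 0.039 and 0.0136. They are 3 of the 10 genes, and 2.52% of all tested rows were higher past the threshold (6.30% in either direction and 3.78% lower). In these 3 genes, and in no other as a single first row, the CPM ranges did not overlap. The share was 25.1% over all tested rows, and CHIR was the higher in 10.9%. Log2 changes were above 0 in 8 of the 10 genes, with a median of 0.24. Over all tested rows 52.4% were below 0 and the median was -0.01.

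Gas5 (0.22), Snhg3 (0.34), Snhg4 (0.19) and Neat1 (0.29) had log2 changes above 0 with CHIR that did not pass, with edgeR adjusted p values of 0.0805, 0.0605, 0.685 and 0.143. Snhg6 (-0.08) and Snhg8 (-0.12) lay below 0. For Malat1 the log2 change was 0.01, with a 95% confidence interval of -0.17 to 0.19. Snhg1 passed with any 1 of the 9 libraries removed. Snhg5 was lost without control replicate 1 or 2 and without CHIR replicate 1 or 2, and Snhg12 without control replicate 3 or CHIR replicate 1, so that without CHIR replicate 1 Snhg1 alone passed.

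With BRD0705 against the control, Snhg6 was the only gene of the 10 to pass. It fell by 0.46 ± 0.101 on the log2 scale (SE), or by 27.5%, with an edgeR adjusted p of 0.0351, and 0.534% of all tested rows were lower past the threshold (1.22% in either direction and 0.690% higher). The ranges did not overlap in 5 of the 10 genes, Gas5, Snhg1, Snhg4, Snhg5 and Snhg6, with BRD0705 lower in each. Over all tested rows the share was 20.2%, and BRD0705 was the lower in 10.4%. Log2 changes were below 0 in 9 of the 10, Snhg3 (0.03) being the exception, and in 51.0% of all tested rows. Their median was -0.24 against 0.00. Gas5 (-0.24), Snhg1 (-0.24) and Snhg5 (-0.27) had edgeR adjusted p values of 0.123, 0.0977 and 0.0779. Snhg8 (-0.37), Malat1 (-0.18) and Neat1 (-0.24) overlapped the control. For Snhg12 the log2 change was -0.03, with a 95% confidence interval of -0.22 to 0.15.

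With 1 library removed at a time the call on Snhg6 held in 4 of 9 fits and was lost without any 1 of the control libraries and without BRD0705 replicate 1 or 2. Snhg6 lies opposite exons of Mcmdc2, a gene with 1.98 CPM on average with BRD0705 and 2.27 CPM in the control.

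Base composition and feeder signal moved with these comparisons. The 10 genes have transcripts of 39.6 to 50.5% GC and a median length of 437 to 1109 bases in the annotation, against medians of 50.7% and 2577 bases over the tested rows. For Malat1 and Neat1 these lengths are medians over annotated fragments and lie far below the full transcripts. The corrected values of Malat1 and Neat1 therefore rest on lengths that are too short. A smooth trend of each library over GC content and length, read at the 8 hosts, was 0.008 to 0.089 on the log2 scale in the control libraries, -0.075 to -0.035 with BRD0705 and -0.013 to 0.003 with CHIR. With that trend removed, 0 of the 10 genes passed in edgeR between BRD0705 and the control, 3 having an unadjusted p under 0.05, and Snhg6 had -0.33 (edgeR adjusted p = 0.135). Over all tested rows 2091 had an unadjusted p under 0.05 in that fit. By DESeq2, without the correction, 1 passed, Snhg5, while Snhg6 was given no adjusted p. In edgeR with the trend removed, 6 passed between CHIR and the control, with Gas5 (0.28), Snhg3 (0.41) and Neat1 (0.37) added to Snhg1, Snhg5 and Snhg12. Neat1 had an edgeR adjusted p of 0.0476 there, close to the threshold. Over all tested rows 3761 had an unadjusted edgeR p under 0.05 in that fit, against 3148 without the correction. The median log2 change of all tested rows for CHIR was 0.036 with the correction and -0.009 without it. In that corrected fit 5 passed between the inhibitors, with log2 differences of -0.39 for Gas5, -0.50 for Snhg1, -0.47 for Snhg5, -0.40 for Snhg12 and -0.55 for Neat1. Over all tested rows 3910 had an unadjusted edgeR p under 0.05 between the inhibitors, against 3452 without the correction. The median log2 difference of all tested rows was -0.041 with the correction and 0.004 without it.

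**Figure D2:**
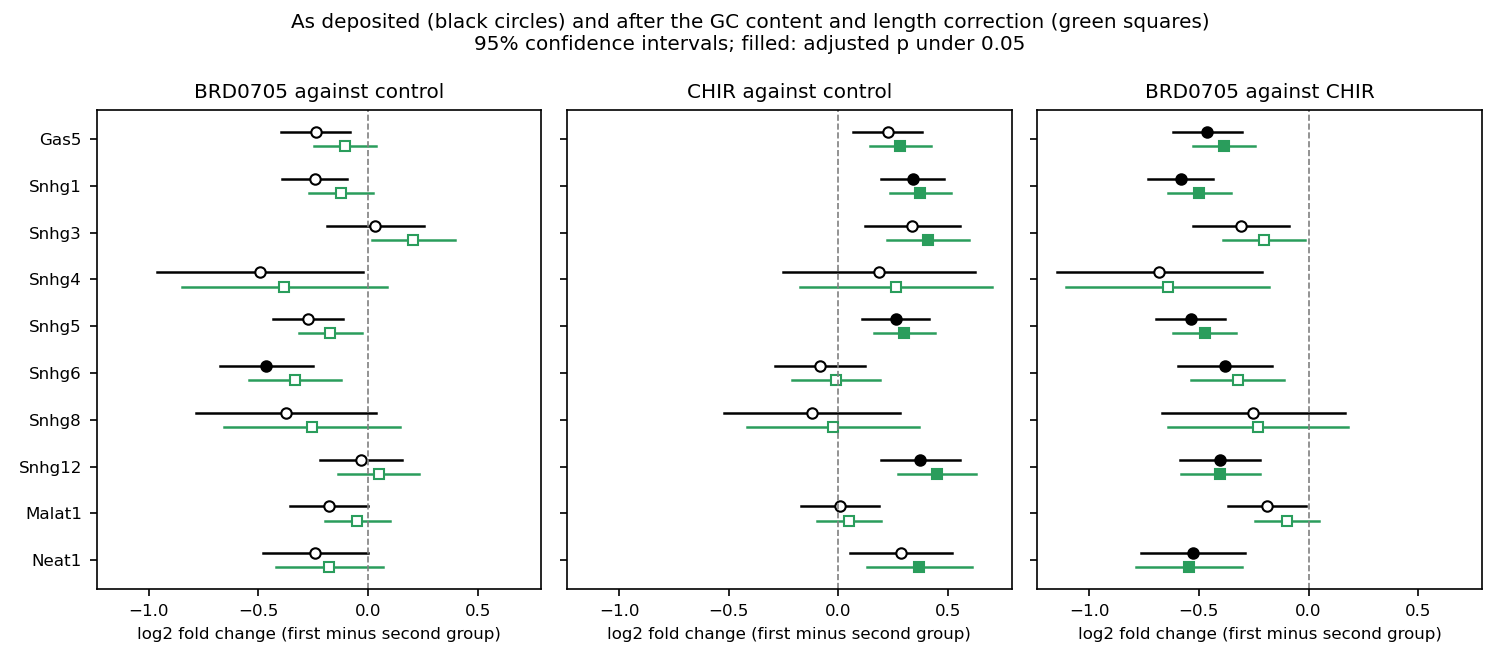
Log2 fold change (horizontal axis, first minus second group) of each gene in the 3 comparisons with its 95% confidence interval, from the counts as deposited (black circles) and after the trend over GC content and length was removed (green squares); filled symbols mark an edgeR adjusted p under 0.05, and Snhg4 is its first row. In the right panel Gas5, Snhg1, Snhg5, Snhg12 and Neat1 are filled in both fits, while in the left panel the one filled symbol, Snhg6, opens after the correction.

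All 10 feeder markers had log2 changes above 0 in both comparisons with the control, with medians of 0.22 for BRD0705 and 0.17 for CHIR, and their median between the inhibitors was 0.04. The mean log2 CPM of the markers was 6.051 to 6.296 in the control, 6.351 to 6.463 with BRD0705 and 6.184 to 6.436 with CHIR. Control and BRD0705 did not overlap, so this level cannot be separated from BRD0705, and calls lost with it do not check single genes. For CHIR the overlap was partial. With the mean feeder marker level of each library as a covariate, 0 of the 10 genes passed in edgeR against the control for either inhibitor, with an unadjusted p under 0.05 in 6 for BRD0705 and 5 for CHIR. By that fit 0 rows of the whole table passed for BRD0705, with 1210 at an unadjusted p under 0.05. For CHIR 271 rows passed, with 2321 at an unadjusted p under 0.05. Between the inhibitors 7 of the 10 passed with the covariate, namely Gas5, Snhg1, Snhg4, Snhg5, Snhg6, Snhg12 and Neat1. In that fit 8 of the 10 genes had an unadjusted edgeR p under 0.05 between the inhibitors, as did 3150 of all 15366 tested rows. Gas5, Snhg1, Snhg5, Snhg12 and Neat1 passed between the inhibitors in all 22 alternative fits, with log2 differences of -0.52 to -0.38, -0.64 to -0.50, -0.59 to -0.47, -0.47 to -0.33 and -0.65 to -0.38.

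The lists that follow stand beside the shares of all tested rows past the threshold, in the fit of the counts as deposited. For BRD0705 against the control these were 0.690% higher and 0.534% lower, and for CHIR 2.52% and 3.78%. Between the inhibitors 4.80% were higher and 2.97% lower with BRD0705. The lncRNA hosts outside the 10 genes were read in the same fit. Of 13 listed, 11 were tested, and 4 were lower with BRD0705 than with CHIR, with a median log2 difference of -0.28 over the 11 against 0.00 for all tested rows. Zfas1, host of box C/D snoRNAs at the Znfx1 locus, stood at 12.5, 13.0 and 13.4 CPM in the control, 12.9, 12.3 and 13.4 CPM with BRD0705, and 18.5, 19.4 and 18.4 CPM with CHIR. Control and BRD0705 shared one range and CHIR lay well above it. Zfas1 rose with CHIR by a log2 change of 0.53 ± 0.080 (SE; adjusted p of 0.000548 by edgeR). Snhg17 rose with CHIR by 0.35 ± 0.067 (edgeR adjusted p = 0.00402), and 9 of the 11 did not pass in that comparison. With the feeder marker level as a covariate Snhg17 had 0.28 (edgeR adjusted p = 0.11), and Zfas1 was the 1 of the 11 that passed for CHIR, at 0.52 (edgeR adjusted p = 0.0167). Snhg14 (-0.57) and Snhg16 (-0.44) completed the 4 that were lower with BRD0705 than with CHIR, with edgeR adjusted p values of 0.0155 and 0.02. The number fell to 1 without CHIR replicate 1 and to 2 without BRD0705 replicate 3 or CHIR replicate 2. None of the 11 passed between BRD0705 and the control by edgeR or DESeq2, and 1 had an unadjusted p under 0.05. Over all 15366 tested rows, 2436 had an unadjusted edgeR p under 0.05 for BRD0705 against the control. The number was 3148 for CHIR against the control and 3452 between the inhibitors.

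Protein-coding genes that also host snoRNAs fell with BRD0705 where they passed. With CHIR the number passing in each direction depended on the correction for GC content and length. Of 24 tested, 4 fell with BRD0705 against the control (10 by DESeq2) and 0 rose by either tool, also at an unadjusted p under 0.05, 2 rose and 2 fell with CHIR, and 4 were lower with BRD0705 than with CHIR. Their medians were -0.16, -0.04 and -0.10. After the correction 3 rose with CHIR, Nop56, Eif4a2 and Rcc1, and 0 fell in edgeR, 2 being lower at an unadjusted p under 0.05, and 7 were lower with BRD0705 than with CHIR. The falls of Rps20 and Rpl23 with CHIR had edgeR adjusted p values of 0.0515 and 0.0776 after the correction and of 0.0527 and 0.134 with the feeder covariate, a fit in which only Nop56 of the 24 passed for CHIR. Eif4a2, a translation initiation helicase, had the order of the lncRNA hosts, with 184, 217 and 192 CPM in the control, 171, 160 and 165 CPM with BRD0705, and 259, 242 and 232 CPM with CHIR. Its 3 groups were separate, and its log2 difference between the inhibitors was -0.56 ± 0.063 (SE, edgeR adjusted p = 3.26e-05). Nop56, a core protein of box C/D snoRNA particles, rose by 0.27 with CHIR (edgeR adjusted p = 0.00932). The ribosomal protein gene Rpl23 fell by 0.47 with BRD0705 and by 0.21 with CHIR (edgeR adjusted p values of 0.000569 and 0.0192), and after the correction these changes were -0.40 and -0.15 (edgeR adjusted p values of 0.00128 and 0.0776). Ribosomal protein genes have many near-identical copies, and how the counting assigned such reads is not given in the sources used here. Dkc1, the pseudouridine synthase of box H/ACA particles, fell by 0.21 with BRD0705 (edgeR adjusted p = 0.0413), but had -0.10 (edgeR adjusted p = 0.35) after the correction. Rpl13a and Rps20 passed with BRD0705 before and after the correction. The corrected changes were -0.235 and -0.326 (edgeR adjusted p values of 0.0368 and 0.0199). With the feeder marker level as a covariate, 0 of the 24 passed in edgeR for BRD0705, and 10 had an unadjusted p under 0.05.

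Among 18 proteins of snoRNA particles and their assembly, some of them counted as hosts above, 2 rose and 1 fell with CHIR, 2 fell with BRD0705, and 3 were lower with BRD0705 than with CHIR. Tgs1, which hypermethylates the cap of small RNAs, rose with CHIR by 0.28 and Pih1d1, a subunit of an assembly chaperone, fell by 0.30 (edgeR adjusted p values of 0.031 and 0.0327). With the feeder covariate their edgeR adjusted p values were 0.153 and 0.176. The 2 that fell with BRD0705, Nop58 and Dkc1, did not pass after the correction, with -0.15 and -0.10 (edgeR adjusted p values of 0.196 and 0.35), or with the feeder covariate, with edgeR adjusted p values of 0.569 and 0.57. Between the inhibitors 1 of the 3 passed with the feeder covariate.

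Factors of NMD, the pathway that removes many host transcripts, were listed with 17 genes. With CHIR against the control 5 of them rose and 0 fell by edgeR and by DESeq2 (8 and 1 at an unadjusted edgeR p under 0.05), with a median log2 change of 0.12 against -0.01 for all tested rows. The endonuclease Smg6 gave 66.4, 75.8 and 75.4 CPM in the control, 81.6, 75.6 and 73.6 CPM with BRD0705, and 93.0, 92.1 and 98.1 CPM with CHIR. The CHIR libraries lay above all others. Smg6 rose by 0.38 ± 0.063, Smg9, a partner of the kinase Smg1, by 0.33 ± 0.060, the decay adaptor Smg5 by 0.28 ± 0.050, and Smg1, the kinase that phosphorylates Upf1, by 0.24 ± 0.059 (SE). EdgeR gave them adjusted p values of 0.00145, 0.00257, 0.00254 and 0.0196. The fifth was the helicase Upf1 (0.19, edgeR adjusted p = 0.0293), named after its value was seen. None of the 17 passed in edgeR between BRD0705 and the control, where 9 had an unadjusted p under 0.05 and 3 passed by DESeq2. Between the inhibitors 4 were lower with BRD0705 than with CHIR. The count of 5 fell to 3 without CHIR replicate 1, CHIR replicate 3 or control replicate 3, and rose to 9 after the correction for GC content and length, and it was 3 with the feeder covariate, where Smg9 and Upf1 had edgeR adjusted p values of 0.0688 and 0.203. The count of 4 was 2 without BRD0705 replicate 1 or 2 or CHIR replicate 1, and 8 after the correction.

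Of 4 mRNAs known as targets of NMD, 2 rose with CHIR, and none passed with BRD0705 by edgeR or DESeq2 or had an unadjusted p under 0.05. Ddit3, a stress-induced transcription factor, gave 6.75, 7.12 and 6.85 CPM in the control, 6.21, 7.17 and 8.07 CPM with BRD0705, and 10.7, 11.5 and 11 CPM with CHIR. CHIR alone stood apart, with a log2 rise of 0.68 ± 0.113 (SE; adjusted p of 0.0014 by edgeR). Gadd45b rose by 0.24 (edgeR adjusted p = 0.0374), and had 0.17 (edgeR adjusted p = 0.335) with the feeder covariate. Ddit3 and Gadd45b are also induced at the level of transcription. The other 2, named after their values were seen, did not pass with CHIR. Their log2 changes were -0.15 for Gadd45a and 0.08 for Atf4 (edgeR adjusted p values of 0.281 and 0.499).

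Of 14 paraspeckle proteins, the partners of Neat1, 1 rose and 1 fell with CHIR, 1 rose and 2 fell with BRD0705, and 2 were lower with BRD0705 than with CHIR. Rbm14, which is needed for paraspeckles to form, gave 150, 158 and 153 CPM in the control, 158, 159 and 141 CPM with BRD0705, and 232, 228 and 236 CPM with CHIR. Its rise with CHIR was 0.59 ± 0.055 in log2 units (SE; adjusted p of 4.99e-06 by edgeR). Sfpq rose by 0.22 with BRD0705, and Taf15 and Hnrnpa1, both RNA-binding proteins, fell by 0.29 and 0.24, with edgeR adjusted p values of 0.047, 0.0239 and 0.0251. Hnrnpa1 had -0.18 (edgeR adjusted p = 0.0878) after the correction for GC content and length. These 3 did not pass with the feeder marker level as a covariate, a fit in which 0 rows passed for BRD0705. None of 10 speckle proteins, the neighbours of Malat1, passed in edgeR in any of the 3 comparisons, with medians of 0.02, 0.05 and -0.01. At an unadjusted p under 0.05 there were 3, 2 and 1 of them, and DESeq2 called 1, 0 and 0. Of all 15366 tested rows, 2436, 3148 and 3452 had an unadjusted edgeR p under 0.05 in these comparisons.

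The nuclear exosome and its partners, which degrade RNA in the nucleus, had 1 of 19 higher with CHIR, the adaptor Zfc3h1 (0.27, edgeR adjusted p = 0.00882, and 0.0636 with the feeder covariate), and 0 passing with BRD0705 by edgeR (2 at an unadjusted p under 0.05, and 1 called by DESeq2). Of 13 regulators of TOP mRNA translation, 0 passed in edgeR against the control for either inhibitor, with 6 for BRD0705 and 1 for CHIR at an unadjusted p under 0.05, and DESeq2 called 1 and 0. Eif4ebp2, a repressor of cap-dependent translation, was higher with BRD0705 than with CHIR by 0.25 (edgeR adjusted p = 0.00504), and the difference was 0.15 (edgeR adjusted p = 0.0527) after the correction. Other lncRNAs were listed as well. Of 14 tested, 1 fell with CHIR by edgeR and by DESeq2 and 0 rose (3 at an unadjusted edgeR p under 0.05), the 1 being Lncenc1, a lncRNA of naive ESCs, at -0.37 ± 0.055 (SE, edgeR adjusted p = 0.000561). Log2 changes with CHIR were above 0 in 10 of the 14, and their median was 0.24. The 10 genes had the same median, and all tested rows had -0.01. Firre, an X-linked nuclear lncRNA, was lower with BRD0705 than with CHIR by a log2 difference of -0.31 (edgeR adjusted p = 0.00897).

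**Figure D3:**
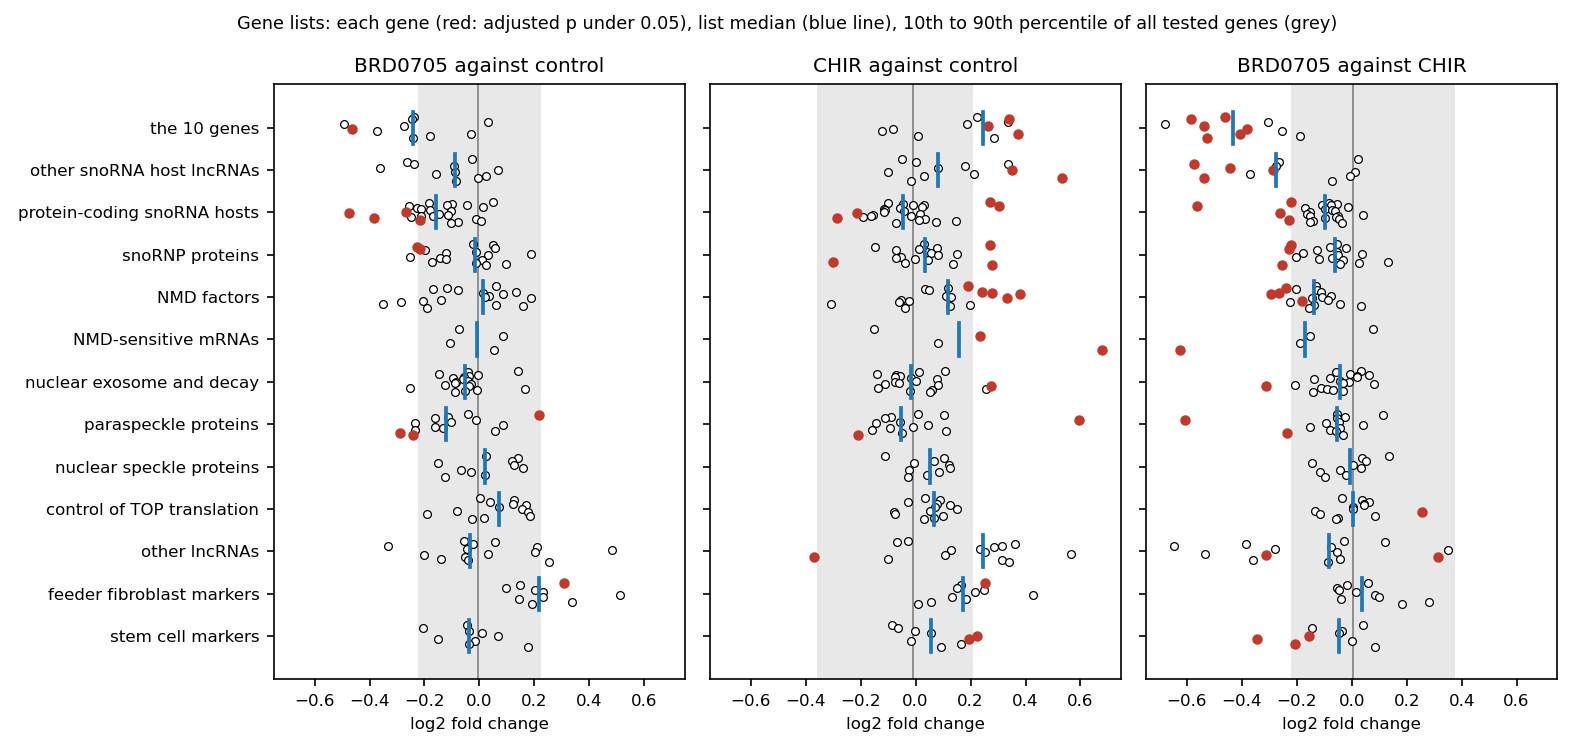
Log2 fold change (horizontal axis) of every tested gene of each list in the 3 comparisons; red points passed an edgeR adjusted p of 0.05, blue lines are list medians and the grey band runs from the 10th to the 90th percentile of all tested rows. The 10 genes have medians of -0.24, 0.24 and -0.43, and their 6 red points in the right panel all lie below 0.

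Across the 9 libraries the levels of the 8 hosts were related, as a description with group differences included. Pearson's r of log2 CPM over the 28 pairs of hosts ran from 0.12 to 0.93 with a median of 0.69, and after the group means were removed the median was 0.25. The 5 rows most like the mean of the hosts, out of 7646, were Sde2, Ccz1, Aagab, Tdg and Ccdc47, with r of 0.98, 0.96, 0.96, 0.95 and 0.95. Sde2, for one, had a mean of 66.5 CPM in the control group, against 60.3 CPM for BRD0705 and 68.4 CPM for CHIR. The rows most like Malat1 were Zfp518a, Fbxl5, Appl1, Rif1 and Marchf6, with r of 0.93 to 0.95. All these values share the same libraries, depth and base composition trends.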

How the data were processed

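RNA was sequenced from 9 libraries, grouped by the labels. The authors deposited raw counts per gene symbol as whole numbers; the submitters' processing notes name RSEM, DESeq2 and mm10, without roles. Per the labels' protocols, libraries were ribosomal RNA-depleted, while the molecule label says polyA RNA. The authors also deposited a normalized signal, in scaled counts that equal the raw counts divided by median-of-ratios size factors (largest relative difference 2.19e-11).

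The test was that of edgeR 4.0.16 under R 4.3.3 (TMM, filterByExpr with a minimum count of 10, 2-sided quasi-likelihood F test, 9 libraries and 3 group means in 1 fit). CPM divide by the TMM-scaled total, and their log2 adds a prior count of 2. The genes and lists were chosen with earlier results of these data known. All 10 genes are named, and from each other list up to 4 genes past the threshold in any comparison, smallest adjusted p first; Snhg7 was not analysed here. Rows alike were ranked by Pearson's r among rows whose log2 CPM averaged 4 or more. Overlaps (1 overlapping gene is not reported here), GC content and length come from GENCODE vM39 (GRCm39), start windows and snoRNAs from RefSeq (GRCm38.p6). The scripts were tested on simulated data. Alternatives were DESeq2 1.42.0, limma 3.58.1 on the normalized signal (pseudocounts 1 and 0.1), other scalings, filters and sample sets, a replicate block, summed rows, splines (5 degrees of freedom) over GC content and over length, a feeder marker covariate, and leaving out each library.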

Additional observations from a re-analysis of the deposited data

How the results depend on the processing

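Counts of the 10 genes passing were 1 (BRD0705 against control), 3 (CHIR against control) and 6 (BRD0705 against CHIR). Without the low-count filter they were 4, 6 and 8, and with the GC content and length correction 0, 6 and 5, with or without the replicate block. With the feeder marker covariate they were 0, 0 and 7, and with each library left out in turn 0 to 1, 1 to 4 and 5 to 7. Over all tested rows, 188 passed for BRD0705 against control, 968 for CHIR against control and 1194 between the inhibitors. For BRD0705 the number was 477 by DESeq2, 609 without the filter, 123 after the correction, 105 with correction and replicate block, 0 with the feeder covariate, and 21 to 305 with a library left out. For CHIR it was 1535 after the correction, 1499 with the replicate block added, 271 with the feeder covariate, and 514 to 1070 with a library left out, and between the inhibitors 616 to 1313 with a library left out. Equal replicate numbers did not pair libraries: deviations from group means correlated at -0.090 to 0.080 over 9 same-numbered pairs (mean -0.001, against 0.001 over 18 others), and the replicate block gave 222, 973 and 1177 rows and 1, 4 and 6 of the 10 genes. DESeq2 gave no adjusted p for Snhg4, Snhg6 and Snhg8 between BRD0705 and control. Directions turned only where the change had not passed. For BRD0705 against control, Snhg12 became 0.048 after the correction and 0.050 with the block added, and was -0.071 to 0.011 with a library left out; Snhg4.1 became 0.077 and 0.076, and was -0.122 to 0.056; Snhg3 was -0.094 to 0.197. For CHIR against control, Malat1 became -0.017 by library size only and was -0.087 to 0.085, Snhg4 became -0.126 with the feeder covariate, and Snhg8 was -0.371 to 0.059; between the inhibitors Snhg8 was -0.513 to 0.005. The cause of these shifts was not tested, apart from the smaller number of libraries or larger number of rows that some fits hold by construction. Low counts limit Snhg8 (69 to 162 a library) and the first Snhg4 row (22 to 63).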
